A study of Homo sapiens with 18 samples.

Results

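The 9 genes described here encode the exchange factors RAPGEF1, RAPGEF2, RAPGEF3, RAPGEF4 and RAPGEF6, the small GTPases RAP1A and RAP1B, and the GTPase-activating proteins RAP1GAP and RAP1GAP2. They were chosen by name, as the cAMP-activated exchange factors of the EPAC type together with RAP1 and its closest regulators, and each was measured as the sum of its transcripts' counts. All 9 passed the filter on low counts, out of 15519 genes tested and 23903 genes with a count. HEK293 is an established human embryonic kidney cell line. Wildtype HEK293 cells were compared with β-arrestin1/2 KO cells, which had been edited with CRISPR–Cas9 to remove both β-arrestins, and with Gαs KO cells, edited in the same way to remove the stimulatory G protein subunit. All 6 groups had been transfected with a plasmid for the wildtype β2-adrenergic receptor (β2AR) and serum-starved overnight, and 48 h after transfection they received vehicle (basal) or 1 μM isoproterenol, a β-adrenergic agonist, for 1 h. Each line and treatment had 3 libraries labelled as biological replicates, 18 in all. How the replicates were separated is not given in the sources used here, so the p-values measure the spread between these libraries. Whether a KO line was 1 clone is not given either, and the loss of the gene and other properties of a separately made line cannot be told apart in these comparisons.

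RAP1 proteins are molecular switches, active when bound to GTP and silent when bound to GDP. Exchange factors load them with GTP and GTPase-activating proteins return them to the GDP form. RAPGEF3 (EPAC1) and RAPGEF4 (EPAC2) bind cAMP directly, so that a receptor coupled to Gαs can switch RAP1 on without protein kinase A. RAPGEF1 is instead brought to membranes by CRK adaptors, while RAPGEF2 and RAPGEF6 (PDZ-GEF1 and PDZ-GEF2) carry PDZ domains. Active RAP1 acts on integrin adhesion, cell junctions and, in some cells, ERK signaling. The switching itself happens in proteins. The libraries measure only the mRNAs, and in bulk RNA fewer cells with a transcript and less of it per cell cannot be told apart.

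RAP1A and RAP1B encode near-identical proteins, so it matters whether reads of one could be counted for the other. The coding sequences of their leading transcripts, RAP1A-201 and RAP1B-204 (GENCODE 29), both have 552 bases and differ at 94 of them, an identity of 83.0%. Of the differences, 71 fall on the last base of a codon, and the longest stretch without one has 26 bases. The first 60 coding bases are shown here with the 7 bases that differ in capitals, to let a reader see how evenly the differences are spread.
RAP1A: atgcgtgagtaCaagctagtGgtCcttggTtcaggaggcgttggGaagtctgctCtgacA
RAP1B: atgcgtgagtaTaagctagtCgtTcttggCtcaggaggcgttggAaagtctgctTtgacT
Over all annotated transcripts of both genes, 0 stretches of 31 bases were shared, and the pseudogenes RAP1AP, RAP1BP1, RAP1BP2 and RAP1BP3 were each at a mean of 0.2 counts or less per library. Among the other pairs of the 9 genes, RAPGEF6 and RAP1B shared 8 stretches of 31 bases.

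The second sequence shown bears on the treatment. The cAMP response element TGACGTCA is the palindrome bound by the CREB family of transcription factors. It was searched on both strands, together with the shorter motif TGACG, which forms its first 5 bases, in RefSeq promoters (GRCh38.p14, 250 bases before to 50 after a start site), which were at hand for 8 of the 9 genes as 21 promoters. RAP1GAP had no entry. The full element was present in 1 of the 21 promoters, that of RAP1B, against 1.85% of 35116 promoters of the same length. The shorter motif, which a full element also contains, was present in 4 of the 21 (19.0%), against 24.6% of all promoters. The 30 bases of the RAP1B promoter around the element, at chr12:68610876-68610905 on the plus strand, are printed with the element in capitals.
RAP1B: ggctgaacgccTGACGTCAaggcgacatcg
The element lies 12 to 5 bases before the RefSeq start site. In GENCODE 29 the leading transcript RAP1B-204 starts further upstream, and the element is inside its first exon from base 30. A match of letters says nothing on whether a factor was bound in these cells.

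Depth and labels were checked over the whole series. Between 17908597 and 25019834 counts were available per library. GNAS, the gene of Gαs, was lower in Gαs KO than in wildtype cells at basal by 4.32 on the log2 scale, and ARRB2 was lower in β-arrestin1/2 KO cells by 2.25. ARRB1 was at 782 ± 54.7 normalized counts in β-arrestin1/2 KO cells at basal and at 944 ± 267 in wildtype cells (SD, n = 3), a difference that did not pass the test, and counts of an edited transcript need not fall. The embryonic kidney marker SIX2 and the neurofilament gene NEFL were found in all 18 libraries, PAX2 and NEFM were low, and LHX1 was at 0 in 5 libraries. Levels of SIX2 and NEFL differed between lines. Against wildtype cells at basal, SIX2 differed by -1.61 in Gαs KO and -0.69 in β-arrestin1/2 KO cells on the log2 scale. NEFL differed by 1.82 and 1.03, and all these differences passed the test. Replicate 1 of the wildtype basal group stood apart from the other libraries. The mean GC content of its counts was 52.5%, against 49.15 to 50.1% in the other 17. Every comparison with wildtype cells at basal rests on it, and it also widens the spread that all comparisons share, so results are given with and without it. Its part in each result was not tested further.

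Per transcript length, RAP1B stood above the other 8 genes. Lengths were those of the annotation, and the unit is TPM (counts per transcript length, scaled to a fixed total per library), computed here. RAP1B was at 183 ± 27.6 TPM over the 18 libraries (SD), above RAP1A at 64.9 ± 8.33 TPM without overlap. RAPGEF1 followed at 59.1 ± 11.3 TPM, and its range overlapped that of RAP1A. In Gαs KO cells its mean was above that of RAP1A, at 71.9 against 69.6 TPM at basal and 71.2 against 66.4 TPM with isoproterenol. RAPGEF2 had 27.9 ± 3.45 TPM, below every value of RAPGEF1. RAP1GAP2 at 13.3 ± 2.58 TPM and RAPGEF6 at 11.8 ± 2.22 TPM overlapped. At the low end, RAPGEF4 with 4.62 ± 0.973 TPM, RAP1GAP with 3.89 ± 0.884 TPM and RAPGEF3 with 2.75 ± 1.15 TPM overlapped each other, so the cAMP-binding exchange factors were among the scarcest of the 9 mRNAs. The order of RAPGEF3 and RAP1GAP was not the same in all groups: RAPGEF3 had the higher mean in wildtype cells at basal (3.75 against 3.40 TPM) and in Gαs KO cells at basal (3.05 against 2.82 TPM). The first rests on wildtype basal replicate 1 (5.81 against 3.815 TPM). In replicates 2 and 3 RAPGEF3 was the lower, at 2.24 against 3.19 and 3.191 against 3.199 TPM. In Gαs KO cells at basal RAPGEF3 was the higher only in replicate 3 (3.24 against 2.385 TPM).

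**Figure D1:**
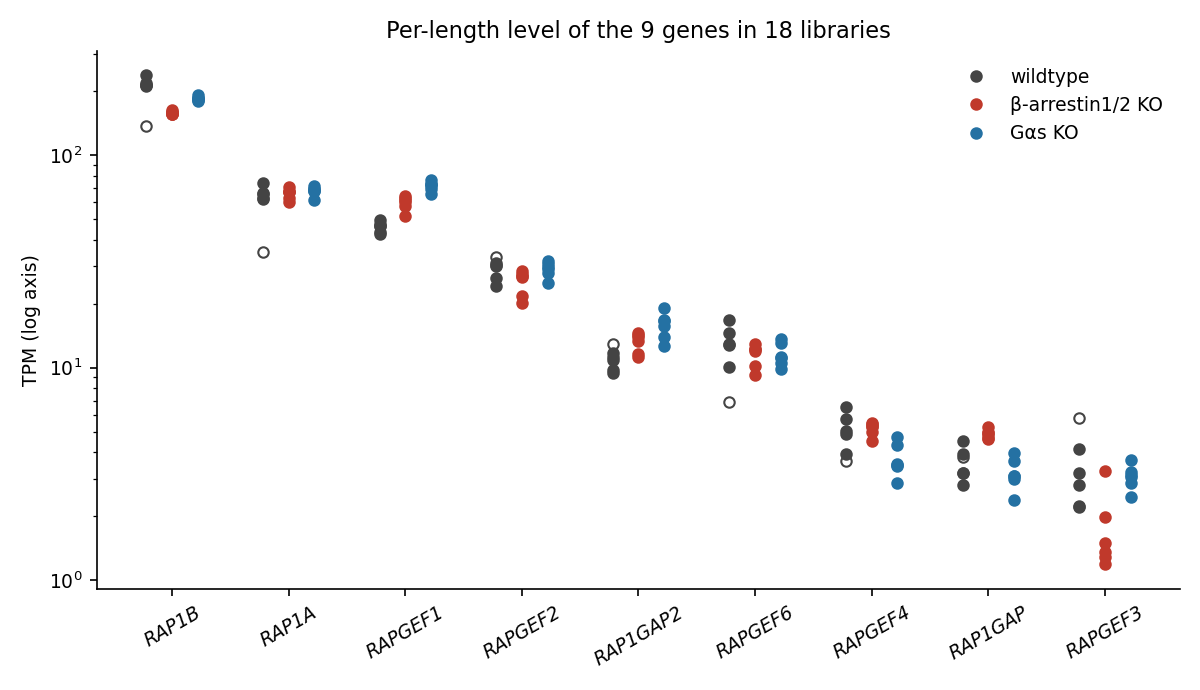
Level of each gene in TPM (log axis), with a point for each of the 18 libraries, colored by cell line. The open circle is wildtype basal replicate 1. RAP1B had the highest mean (183 TPM) and RAPGEF3 the lowest (2.75 TPM).

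The sum of RAPGEF3 and RAPGEF4 ran from 5.83 to 9.88 TPM over all libraries, and its group means lay between 6.59 and 8.82 TPM. The sum of RAP1A and RAP1B was at 281 ± 3.71 TPM in wildtype cells with isoproterenol, at 251 ± 8.52 TPM in Gαs KO cells and at 225 ± 4.14 TPM in β-arrestin1/2 KO cells (SD, n = 3). These 3 ranges did not overlap. For each pair of lines taken alone, normalized counts with isoproterenol did not overlap for 55.8 to 60.3% of all genes. The share of genes with all 3 ranges apart was not computed. At basal the sum in wildtype cells ran from 172.1 to 311.1 TPM. That range overlapped Gαs KO cells at 249.6 to 257.0 TPM and β-arrestin1/2 KO cells at 216.5 to 226.6 TPM. The ratio of RAP1B to RAP1A was 3.33 ± 0.0970 in wildtype cells with isoproterenol, 2.79 ± 0.175 in Gαs KO cells and 2.29 ± 0.0323 in β-arrestin1/2 KO cells. In wildtype basal replicate 1 the sum was 172 TPM, below all other libraries.

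The first question was whether 1 h of β2AR stimulation changed the mRNA of these genes. For 0 of the 9 did the response pass the test in wildtype, β-arrestin1/2 KO or Gαs KO cells, where 0.464%, 1.13% and 0% of all genes passed. The control genes showed that the stimulus had acted: the immediate-early gene FOS rose by 3.25 on the log2 scale in wildtype cells, by 3.56 where the β-arrestins were removed, and PCK1, a gluconeogenic cAMP target, by 3.23 and 4.92. In Gαs KO cells the values were 0.50 for FOS and 0.02 for PCK1, and neither passed the test. Over the 9 genes the log2 responses ran from -0.34 to 0.25 in wildtype cells, from -0.13 to 0.19 in β-arrestin1/2 KO cells and from -0.32 to 0.28 in Gαs KO cells, with standard errors of 0.088 to 0.33. The smallest adjusted p in edgeR's quasi-likelihood test was 0.558, 0.824 and 1.0. The unadjusted p was under 0.05 for 0 of the 9 in each line, and DESeq2 called 0 as well (1.2%, 1.88% and 0.058% of all genes). With wildtype basal replicate 1 left out, 0, 1 and 0 of the 9 passed, against 1.1%, 11.7% and 0% of all genes. Basal and isoproterenol libraries did not overlap for 0, 2 and 1 of the 9 genes in the 3 lines, against 9.01%, 29.7% and 10.5% of all genes.

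**Figure D2:**
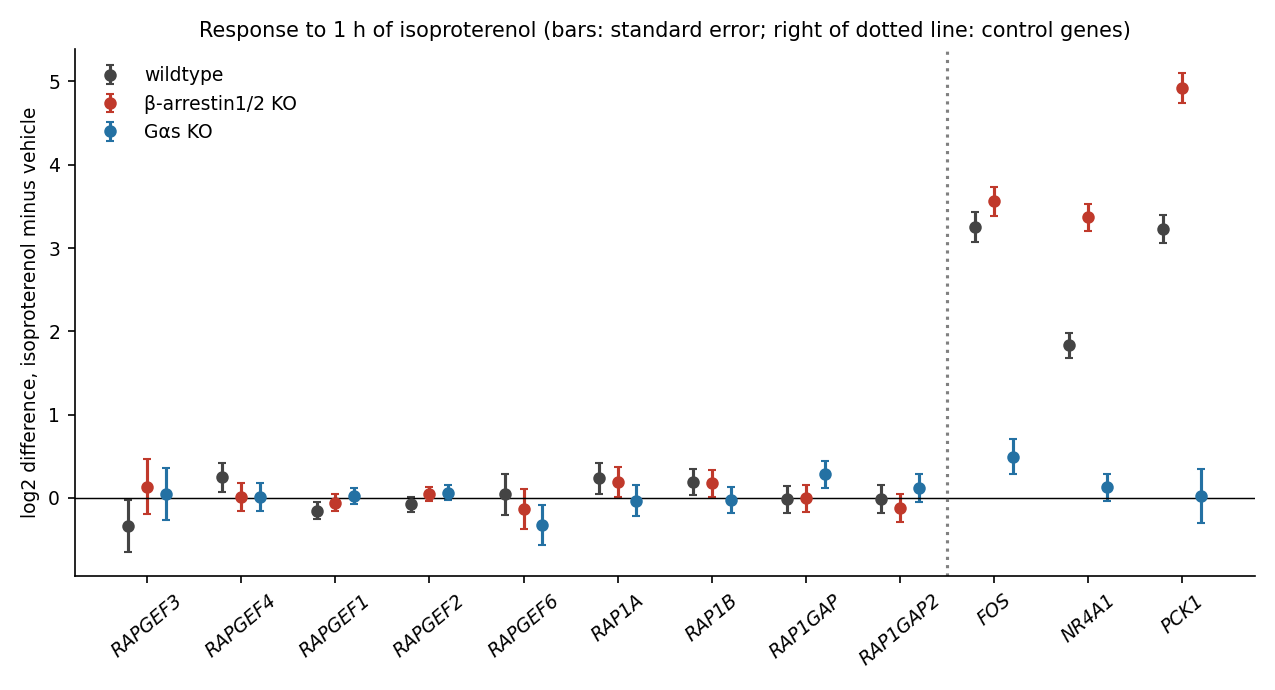
Log2 difference between isoproterenol and basal libraries for the 9 genes and, right of the dotted line, the control genes FOS, NR4A1 and PCK1, in each cell line. Bars are standard errors. The 9 genes lie between -0.34 and 0.28, while FOS, NR4A1 and PCK1 lie between 1.83 and 4.92 outside the Gαs KO line.

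Of the genes described here, RAP1B had the smallest adjusted p for the response in β-arrestin1/2 KO cells. Its normalized counts were 2294, 2487 and 2462 at basal and 2722, 2652 and 2806 with isoproterenol. The groups did not overlap, and the log2 response of 0.17 ± 0.16 (SE) did not pass the test (adjusted p = 0.824). Once wildtype basal replicate 1 was left out, the same response had a standard error of 0.0477 and an adjusted p of 0.0263, and fitted on the 6 libraries of the line alone it had 0.047. After offsets for GC content and length it was 0.07, with an adjusted p of 0.482. The mean GC content of the counts was 49.8 to 50.1% in the basal libraries of this line and 49.3 to 49.4% with isoproterenol. Their part in the RAP1B value was not tested beyond these offsets.

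RAP1A was the only other gene of the 9 whose β-arrestin1/2 KO groups did not overlap. It was at 1094 to 1234 normalized counts at basal and 1318 to 1359 with isoproterenol (log2 response 0.19, adjusted p = 0.831). The RefSeq promoter of RAP1A that was searched (chr1:111541759-111542058) had neither the full cAMP response element nor the shorter motif. It lies just before the start of RAP1A-201. RAP1A-202, with 35.0% of the counts of the gene, starts at chr1:111619783, and no promoter there was searched. Of all genes, 29.7% did not overlap in this comparison. Whether the element had a part in the RAP1B value was not tested. In wildtype cells with isoproterenol, RAP1B stood at 3855, 3676 and 3733, inside the basal range of 2079 to 4138. In Gαs KO cells its 6 libraries lay between 2927 and 3126. The difference of the responses between lines was tested itself. For 0 of the 9 did it pass, for β-arrestin1/2 KO against wildtype (0.168% of all genes passed), Gαs KO against wildtype (0.161%) or β-arrestin1/2 KO against Gαs KO (0.406%), with smallest adjusted p of 1.0, 0.889 and 0.998. The unadjusted p was under 0.05 for 0 of the 9 in each, and DESeq2 called 0 (0.67%, 0.438% and 0.805% of all genes). It was also 0 of the 9 in each without wildtype basal replicate 1, against 8.25%, 0.418% and 2.68% of all genes. The RAP1B difference between β-arrestin1/2 KO and wildtype responses was -0.02 ± 0.22 (SE), and 0.23 ± 0.07 without wildtype basal replicate 1 (adjusted p = 0.058).

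The second question was how the lines differed. The comparisons of each KO line with wildtype cells share the wildtype libraries. At basal, 3 of the 9 genes passed for β-arrestin1/2 KO against wildtype, where 33.6% of all genes did, 1 for Gαs KO against wildtype (31.3%) and 3 for β-arrestin1/2 KO against Gαs KO (26.2%). With isoproterenol, 4, 1 and 3 passed, against 30%, 29.9% and 31.1% of all genes. These are 11.1 to 44.4% of the 9 genes, around the shares of all genes, so the differences that follow do not set the 9 apart from other genes. Called in the same direction under both treatments were 3 genes for β-arrestin1/2 KO against wildtype (RAPGEF2, RAPGEF3 and RAP1B, 23.3% of all genes), 1 for Gαs KO against wildtype (RAPGEF1, 21.9%) and 3 between the KO lines (RAPGEF1, RAPGEF3 and RAP1GAP, 20.7%). Ranges did not overlap for 3, 3 and 5 of the 9 at basal (37.5%, 38% and 56% of all genes) and for 6, 4 and 7 with isoproterenol (55.8%, 56.9% and 60.3%). If wildtype basal replicate 1 was left out, the counts were 7, 5 and 5 at basal (46.7%, 45.9% and 45.3% of all genes) and 5, 4 and 7 with isoproterenol (49.6%, 49.4% and 51.1%). With offsets for GC content and length they were 5, 4 and 5 at basal (48.3%, 46.9% and 43.1%) and 5, 3 and 6 with isoproterenol (46.3%, 46.6% and 46.1%).

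**Figure D3:**
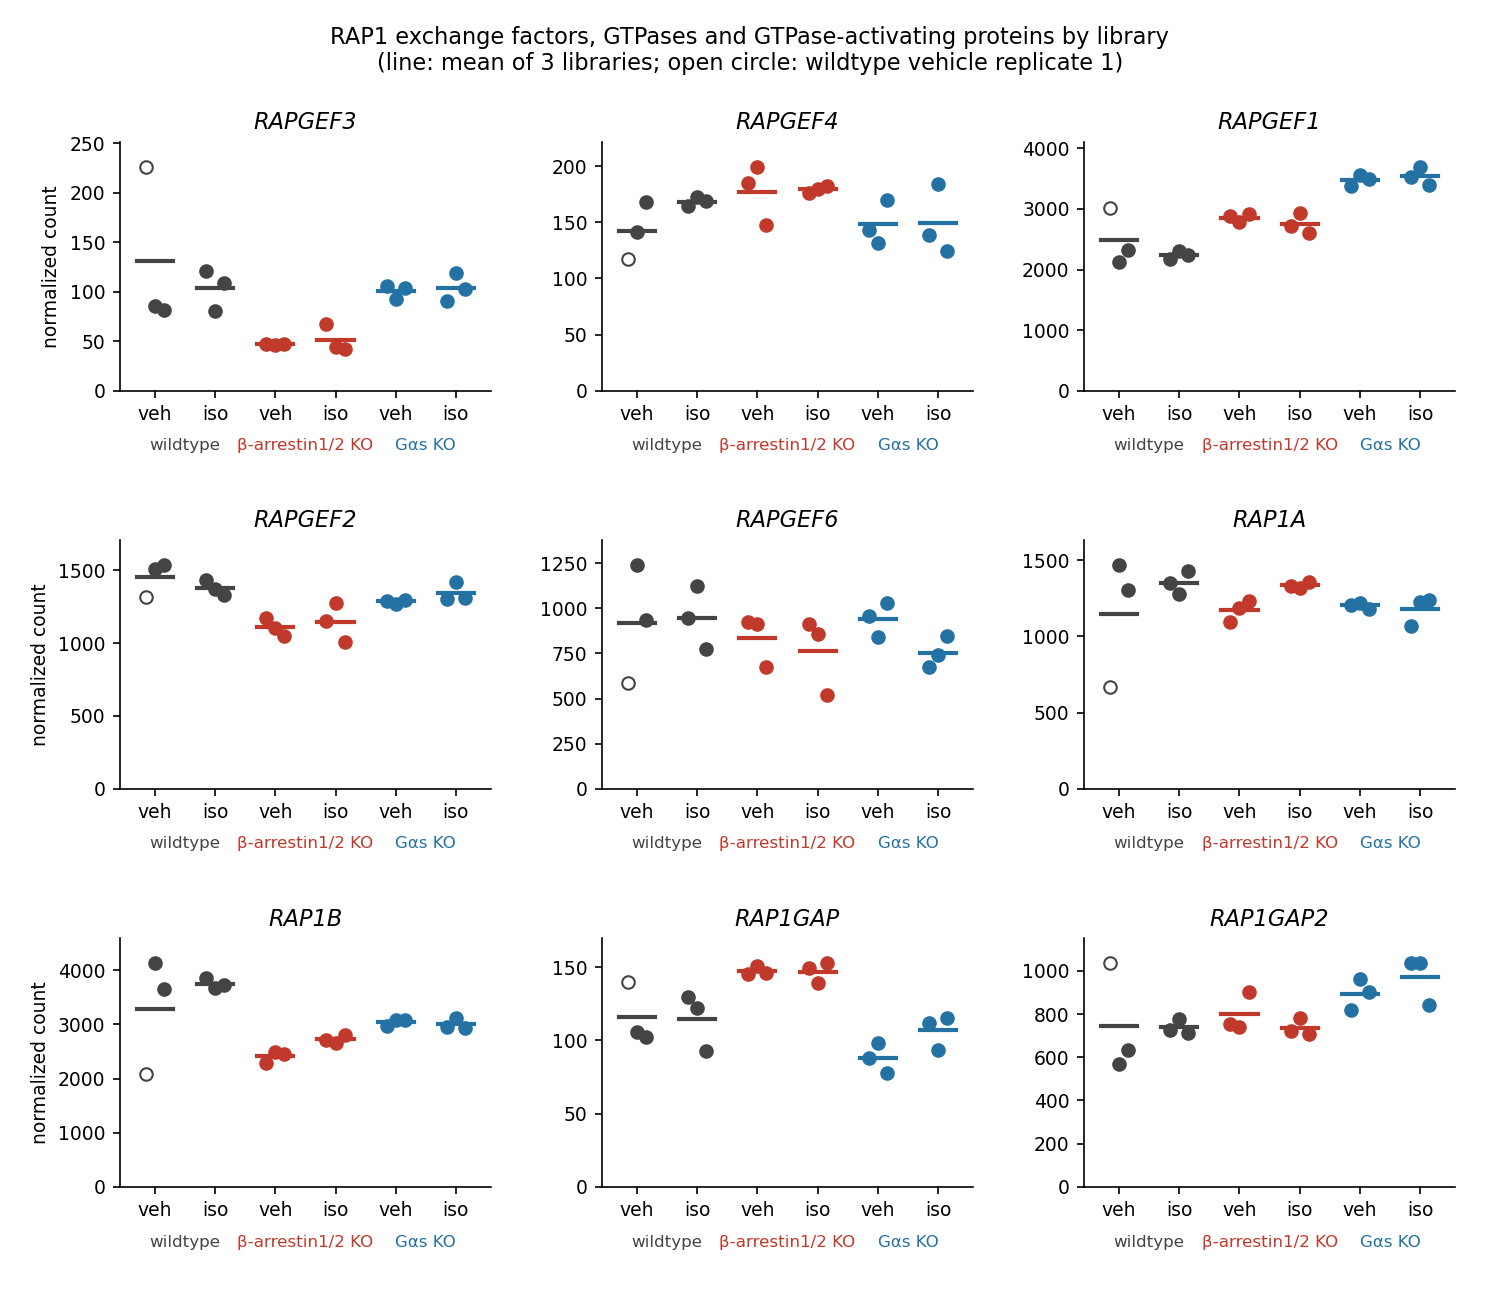
Normalized count of each gene in every library (axes start at 0), by line and treatment (veh, vehicle; iso, isoproterenol). Lines are the means of 3 libraries and the open circle is wildtype basal replicate 1, which for RAPGEF3 was at 226 against 81.3 and 85.5 in the other wildtype basal libraries.

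RAPGEF3, which encodes the cAMP-gated EPAC1, was lower in β-arrestin1/2 KO cells than in both other lines. Its normalized counts were 47.0, 45.7 and 47.4 at basal and 66.9, 44.3 and 42.5 with isoproterenol. In wildtype cells they were 226, 85.5 and 81.3 at basal and 121, 80.7 and 109 with isoproterenol, and in Gαs KO cells 106, 92.4 and 103 at basal and 90.6, 119 and 103 with isoproterenol. Each of the 6 β-arrestin1/2 KO libraries was thus below each of the 12 others. The log2 difference from wildtype was -1.49 ± 0.33 (SE) at basal (adjusted p = 0.00221) and -1.01 ± 0.33 with isoproterenol (adjusted p = 0.0267). From Gαs KO cells it was -1.11 at basal and -1.02 with isoproterenol (adjusted p = 0.0185 and 0.0246). Gαs KO and wildtype cells differed by -0.38 at basal and 0.01 with isoproterenol, and neither passed.

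Wildtype basal replicate 1 had 2.71 times the RAPGEF3 count of the other wildtype basal libraries. In that library 36.6% of the RAPGEF3 counts were assigned to RAPGEF3-216, a transcript annotated for nonsense-mediated decay, which was at 0 in the other 17. Without the library the basal difference between β-arrestin1/2 KO and wildtype was -0.83 ± 0.22 (adjusted p = 0.00505). The counts of RAPGEF3 were split over 18 transcripts. RAPGEF3-202, which carries 1794 coding bases, held 42.2% of them, and RAPGEF3-205, with 2769 coding bases, 16.6%. RAPGEF3-203, a retained-intron transcript, was at 0 in all 6 β-arrestin1/2 KO libraries and at 3.08 to 23.7 counts in the 12 others except for 1 wildtype basal library. Per length the lines were less separate: with isoproterenol β-arrestin1/2 KO cells had 3.27, 1.503 and 1.19 TPM and wildtype cells 4.16, 2.22 and 2.80. SLC48A1, which overlaps RAPGEF3 on the opposite strand, was at 256 ± 11.5 normalized counts in β-arrestin1/2 KO and 356 ± 39.4 in Gαs KO cells at basal. In wildtype cells it was at 433, 278 and 275 at basal and 263 to 274 with isoproterenol. Whether the libraries kept the strand is not given in the sources used here.

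RAPGEF4, the gene of EPAC2, did not pass the test in any comparison. Its normalized counts were 117 to 168 in wildtype cells at basal and 164 to 172 with isoproterenol. In β-arrestin1/2 KO cells they were 147 to 199 and 176 to 183, and in Gαs KO cells 132 to 170 and 125 to 184. The log2 differences between lines lay between -0.18 and 0.32 with standard errors of 0.169 to 0.171, all smaller in size than those of RAPGEF3 in β-arrestin1/2 KO cells. RAPGEF4-201, with 3033 coding bases, held 88.9% of the counts. Its share was 43.6 to 80.1% in wildtype cells at basal, 80.2 to 91.3% in wildtype cells with isoproterenol and 73.6 to 100% in the KO libraries. These wildtype shares rest on 49.2 to 121 counts of RAPGEF4-201 per library at basal and 137 to 141 with isoproterenol. RAPGEF4 had only 1 transcript at 10% or more, so its shares were not tested. In 1 wildtype basal library 44.8% went to RAPGEF4-215, which starts further into the gene and has 2574 coding bases.

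RAPGEF1, the exchange factor brought in by CRK adaptors, was highest in Gαs KO cells. There its normalized counts were 3377, 3567 and 3499 at basal and 3521, 3696 and 3391 with isoproterenol. β-arrestin1/2 KO cells had 2880, 2777 and 2912 at basal and 2716, 2928 and 2604 with isoproterenol. Wildtype cells had 3012, 2119 and 2321 at basal and 2171, 2304 and 2236 with isoproterenol. With the exception of wildtype basal replicate 1, the lines fell into 3 ranges that did not overlap.

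Between Gαs KO and wildtype cells RAPGEF1 differed by 0.49 ± 0.10 (SE) at basal (adjusted p = 0.00135) and by 0.66 ± 0.10 with isoproterenol (adjusted p = 9.85e-05), equal to a 1.58-fold higher level. It was the only one of the 9 genes that passed in this pair of lines. β-arrestin1/2 KO exceeded wildtype cells by 0.20 at basal (adjusted p = 0.132) and by 0.30 with isoproterenol (adjusted p = 0.0323). It stayed below Gαs KO by 0.29 and 0.36, which both passed. The first of these (adjusted p = 0.0426) had 0.054 with the replicate number as a block, and the call was lost in 19 of 29 alternative fits. The basal differences from wildtype without wildtype basal replicate 1 were 0.65 for Gαs KO and 0.37 for β-arrestin1/2 KO, and both passed.

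RAPGEF2, a PDZ-domain exchange factor, was lower in β-arrestin1/2 KO cells. Its normalized counts there were 1170, 1102 and 1050 at basal and 1154, 1272 and 1006 with isoproterenol, against 1314, 1510 and 1537 and 1433, 1371 and 1331 in wildtype cells. The difference was -0.39 ± 0.09 (SE) at basal (adjusted p = 0.00277) and -0.27 ± 0.09 with isoproterenol (adjusted p = 0.0303). Against Gαs KO cells, at 1267 to 1421 in their 6 libraries, it was -0.21 and -0.23 and did not pass (adjusted p = 0.0856 and 0.0574), but both passed without wildtype basal replicate 1 (adjusted p = 0.0181 and 0.00959). RAPGEF6, the related PDZ-GEF2, scattered widely within groups, from 519 to 915 in β-arrestin1/2 KO cells with isoproterenol and from 585 to 1241 in wildtype cells at basal. It did not pass in any comparison, with log2 differences between lines of -0.33 to 0.03.

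**Figure D4:**
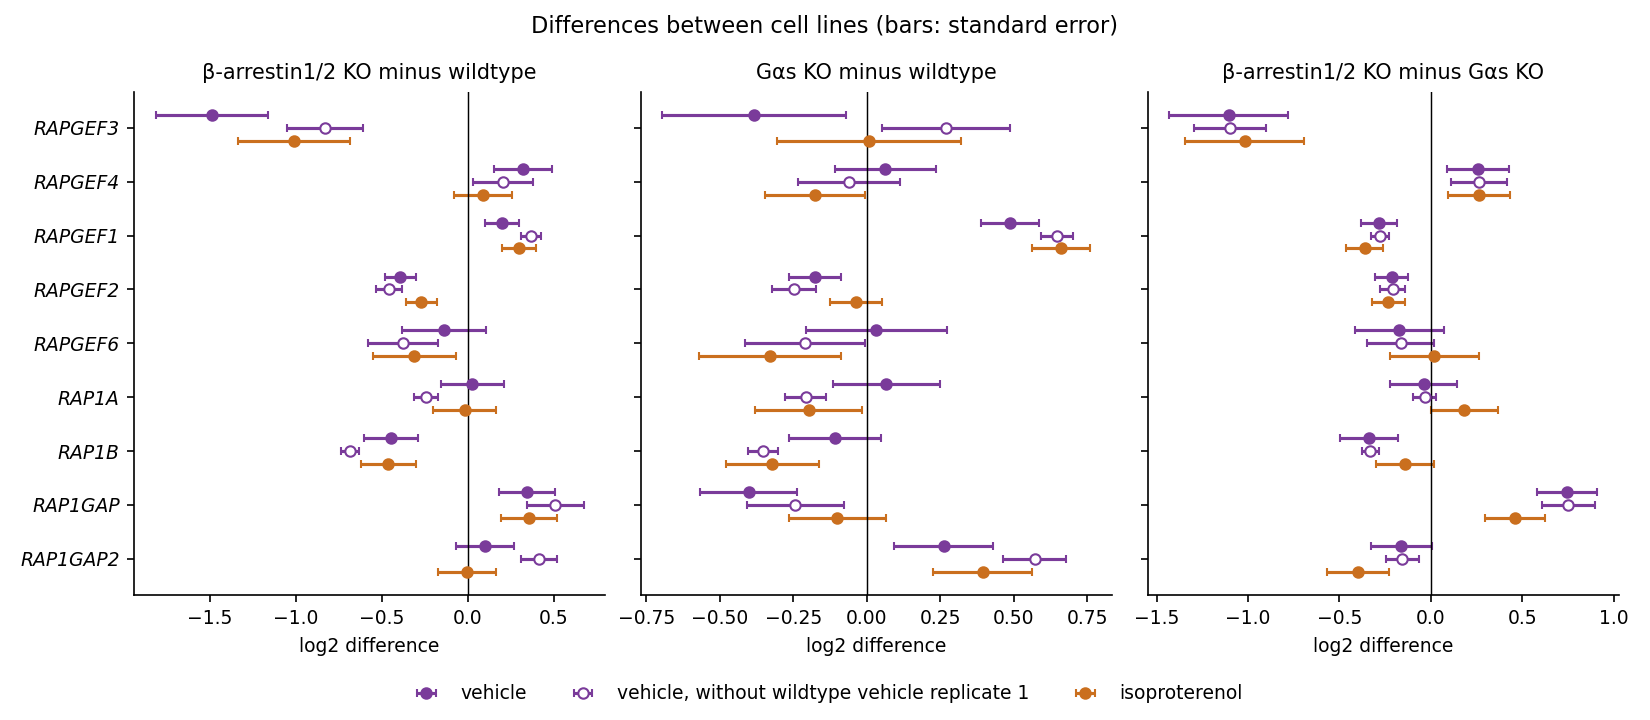
Log2 differences between cell lines for the 9 genes in basal libraries, in basal libraries without wildtype basal replicate 1 (open points) and in isoproterenol libraries. Bars are standard errors. RAPGEF3 was lowest in β-arrestin1/2 KO cells (-1.49 and -1.01 against wildtype), and RAPGEF1 was higher in Gαs KO cells (0.49 and 0.66).

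RAP1B, the more abundant of the GTPase genes, was lower in β-arrestin1/2 KO than in wildtype cells. The difference was -0.45 ± 0.16 (SE) at basal (adjusted p = 0.0401) and -0.46 ± 0.16 with isoproterenol (adjusted p = 0.0374). With isoproterenol the 3 β-arrestin1/2 KO libraries (2652 to 2806) lay below the 3 wildtype ones (3676 to 3855). At basal the ranges overlapped, since wildtype basal replicate 1 had 2079 normalized counts and the others 4138 and 3649. Without it the basal difference was -0.68 ± 0.05 (adjusted p = 1.44e-08). Of 29 alternative fits of the basal value, 20 lost the call. Gαs KO cells, at 2927 to 3126 in their 6 libraries, stood between the other lines. Their difference from wildtype did not pass (-0.11 and -0.32), but did without that library (-0.35 and -0.32, adjusted p = 2.92e-05 and 2.27e-05).

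RAP1A did not pass the test as a whole gene in any comparison. Its normalized counts were 1307 and 1470 in wildtype basal replicates 3 and 2, 671 in replicate 1, and 1068 to 1427 in the 15 other libraries. The basal difference from wildtype was 0.03 for β-arrestin1/2 KO and 0.07 for Gαs KO. Without wildtype basal replicate 1 both turned negative and passed (-0.24, adjusted p = 0.00989, and -0.21, adjusted p = 0.0234). With all libraries and offsets for GC content and length, they were -0.14 and -0.09 and did not pass (adjusted p = 0.0673 and 0.267). Leaving out the same library, RAP1A with isoproterenol passed for Gαs KO against wildtype (-0.198, adjusted p = 0.0159). It also passed for β-arrestin1/2 KO against Gαs KO (0.185, adjusted p = 0.0226). INKA2, which overlaps RAP1A on the opposite strand, was at 172 ± 7.97 normalized counts in β-arrestin1/2 KO and 126 ± 28.9 in wildtype cells at basal.

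The makeup of RAP1A differed between lines. How often transcript shares differ in genes outside those described here was not tested, so the difference cannot be read as particular to RAP1A. RAP1A-201 (chr1:111542218-111713113, 1586 bases) and RAP1A-202 (chr1:111619783-111716691, 5024 bases) both carry 552 coding bases. They start at different sites and the second extends further at its 3′ end. RAP1A-201 held 64.1 to 66.5% of the counts in the 6 Gαs KO libraries, 56.1 to 60.9% in the 6 β-arrestin1/2 KO libraries and 37.0 to 59.4% in the 6 wildtype libraries. Gαs KO cells did not overlap either other line. In two-sided exact permutation tests over libraries, adjusted over 18 tests of leading transcripts, Gαs KO differed from wildtype and from β-arrestin1/2 KO cells (adjusted p = 0.0194 for each, with p = 0.00216, the smallest that 6 against 6 libraries can give). β-arrestin1/2 KO differed from wildtype with an adjusted permutation p of 0.039, which became 0.0684 without wildtype basal replicate 1, whereas both other differences stayed at 0.0194.

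RAP1A-201 and RAP1A-202 held 58.8% and 35.0% of the RAP1A counts, so a lower share of either goes with a higher share of the other. RAP1A-202 held 26.0 to 28.3% in Gαs KO, 34.8 to 38.7% in β-arrestin1/2 KO and 36.3 to 44.7% in wildtype cells. In normalized counts it was at 327 ± 22.6 in Gαs KO, 461 ± 48.1 in β-arrestin1/2 KO and 516 ± 131 in wildtype cells (SD, n = 6 libraries). RAP1A-201 was at 778.5 ± 47.8, 737.9 ± 61.7 and 647 ± 213 in the same order. Without wildtype basal replicate 1, wildtype cells ran from 533 to 596 for RAP1A-202 and from 641 to 872 for RAP1A-201. Gαs KO cells ran from 292 to 347 and from 684 to 812. Differences in these counts were not tested. Counts of transcripts that share sequence are divided by Salmon's model, so these are shares of its estimates. With 3 basal libraries a line, 0 of the 18 tests could pass, because the smallest exact permutation p is then 0.10.

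**Figure D5:**
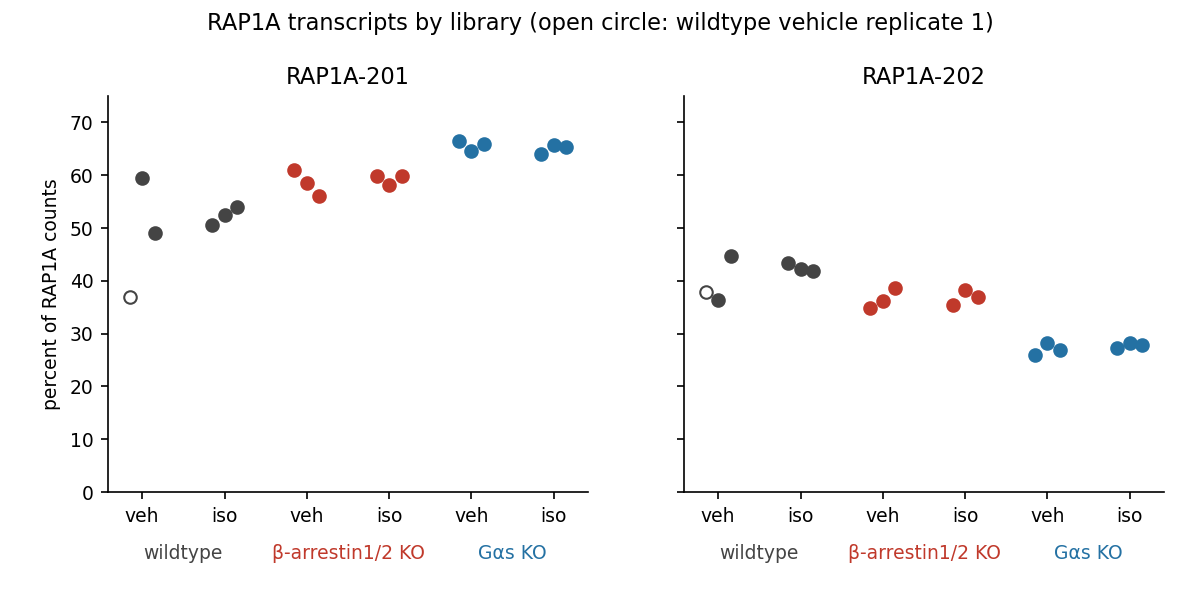
Percent of RAP1A counts in each of its main transcripts, by library, line and treatment (veh, vehicle; iso, isoproterenol). The open circle is wildtype basal replicate 1. The 6 Gαs KO libraries lie at 64.1 to 66.5% for RAP1A-201 and at 26.0 to 28.3% for RAP1A-202, apart from the other lines.

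Of the other leading transcripts, the one of RAPGEF2 also differed. RAPGEF2-214, the longest with 5037 coding bases, held 58.8 ± 6.4% in Gαs KO and 44.4 ± 5.8% in wildtype cells (SD, adjusted exact permutation p = 0.026), and 42.6 ± 15% in β-arrestin1/2 KO cells. The first difference had, without wildtype basal replicate 1, an adjusted p of 0.052. The other 14 tests did not pass. The leading transcripts of RAP1GAP and RAP1GAP2 ran from 0 to 79.1% and from 0 to 100% between libraries.

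RAP1GAP, which returns RAP1 to its GDP form, was higher in β-arrestin1/2 KO than in Gαs KO cells. Its normalized counts were 145, 150 and 146 at basal and 149, 139 and 153 with isoproterenol in β-arrestin1/2 KO cells. In Gαs KO cells they were 88.3, 98.0 and 77.5 at basal and 112, 93.5 and 115 with isoproterenol. The difference was 0.74 ± 0.16 (SE) at basal (adjusted p = 0.0028) and 0.46 ± 0.16 with isoproterenol (adjusted p = 0.0429). With only transcripts annotated as protein coding these values were 0.64 and 0.11, and neither passed (adjusted p = 0.091 and 0.79). The isoproterenol call was lost in 15 of 29 alternative fits, at 0.11 to 0.58 over all of them. Wildtype cells lay between, at 102 to 140 and 92.5 to 130, and did not pass against either KO line. Without wildtype basal replicate 1, β-arrestin1/2 KO exceeded wildtype by 0.51 at basal (adjusted p = 0.0177).

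RAP1GAP2, the more abundant paralog, did not pass in any comparison. Its normalized counts were 1035, 568 and 634 in wildtype cells at basal and 728, 775 and 714 with isoproterenol. In Gαs KO cells they were 820, 960 and 903 and 1035, 1037 and 842. β-arrestin1/2 KO cells had 753, 741 and 904 and 721, 781 and 709. With isoproterenol all Gαs KO libraries were above all wildtype ones (0.39, adjusted p = 0.0898). Without wildtype basal replicate 1 the difference passed at basal (0.57, adjusted p = 0.000267) and with isoproterenol (0.40, adjusted p = 0.00173).

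The wider RAP1 pathway was followed in 36 other genes, of which 34 were tested. They comprised 7 other exchange factors, 5 other GTPase-activating proteins, 3 RAP2 GTPases, 13 effectors, 3 genes of the CRK branch and 5 for prenylation and trafficking. For 0 of the 34 did the isoproterenol response or its difference between lines pass, and 10 to 12 passed in each comparison of lines (29.4 to 35.3%), near the share of all genes. Without wildtype basal replicate 1 between 14 and 20 passed between lines, against 45.3 to 51.1% of all genes. For the response in β-arrestin1/2 KO cells 3 then passed (11.7% of all genes), and for the difference of responses 3 passed between β-arrestin1/2 KO and wildtype (8.25%) and 1 between the KO lines (2.68%).

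Of the 3 genes of the CRK branch upstream of RAPGEF1, 2 were higher in Gαs KO than in wildtype cells under both treatments. Of all genes, 31.3% were called in either direction at basal and 29.9% with isoproterenol. CRKL, an adaptor that carries RAPGEF1 to membranes, was at 4026 ± 51.3 normalized counts in Gαs KO and 3023 ± 142 in wildtype cells at basal (SD, n = 3), a difference of 0.41 (adjusted p = 5.4e-05). With isoproterenol it was 0.42 (adjusted p = 4.2e-05). In β-arrestin1/2 KO cells CRKL was at 2739 ± 57.7 at basal, below Gαs KO by 0.56 (adjusted p = 2.6e-06). With isoproterenol CRKL was below wildtype by 0.22 in these cells (adjusted p = 0.0092), a comparison in which RAPGEF1 was higher by 0.30. The related adaptor CRK was higher in both KO lines than in wildtype, by 0.33 in Gαs KO and 0.40 in β-arrestin1/2 KO at basal (adjusted p = 0.0058 and 0.0014). The scaffold BCAR1, also of this branch, did not pass.

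Among other exchange factors, RAPGEFL1 was lower in β-arrestin1/2 KO than in wildtype cells by 1.07 at basal and by 1.12 with isoproterenol, and lower in Gαs KO by 0.60 and 0.45, all of which passed. RASGRP2, a calcium- and diacylglycerol-regulated exchange factor, was higher in β-arrestin1/2 KO than in wildtype cells, at 73.9 ± 9.39 against 34.3 ± 15.3 normalized counts at basal (log2 difference 1.10, adjusted p = 0.022). RAPGEF5 passed only between the KO lines with isoproterenol (3.66, adjusted p = 0.027), at 548 to 672 in β-arrestin1/2 KO and 1.13, 7.79 and 132 in Gαs KO cells. Within the basal β-arrestin1/2 KO group it ran from 1.04 to 253, so its replicates of 1 group were far apart.

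Of the RAP2 GTPases, RAP2A was higher in β-arrestin1/2 KO cells, at 1890 ± 37.1 normalized counts at basal against 978 ± 10.7 in Gαs KO and 1188 ± 303 in wildtype cells (log2 differences 0.95 and 0.67, adjusted p = 3.9e-05 and 0.0008). With isoproterenol the difference from Gαs KO was 1.24 (adjusted p = 2e-06). RAP2A thus ran opposite to RAP1B in the comparison of β-arrestin1/2 KO with wildtype cells. Among effectors, RASIP1, which acts in endothelial junctions, was lower in both KO lines (-0.83 in β-arrestin1/2 KO and -1.19 in Gαs KO at basal, adjusted p = 0.0079 and 0.00067). RADIL was lower in Gαs KO than in wildtype cells (-0.74, adjusted p = 0.0021), and RASSF5, the effector RAPL, in β-arrestin1/2 KO cells (-0.53, adjusted p = 0.0017). Other effectors were higher in Gαs KO than in wildtype cells: RGL1 by 0.94 at basal (adjusted p = 0.00054) and RALGDS by 0.35 with isoproterenol (adjusted p = 0.022). Of 12 effectors tested at basal, 1 was called higher and 2 lower in Gαs KO against wildtype (31.3% of all genes called). For β-arrestin1/2 KO against wildtype it was 0 and 4 (33.6%). SIPA1, another RAP GTPase-activating protein, was higher in Gαs KO than in wildtype cells with isoproterenol (0.71, adjusted p = 0.0015). SIPA1L3, from the same list, was lower in that comparison (-0.45, adjusted p = 0.016).

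The genes whose log2 CPM (counts scaled to library size) followed each of the 9 most closely over the 18 libraries were found by Pearson's r, as a description in which libraries of a group share a line. For RAPGEF1 these were UCK1 (r = 0.979) and NUMA1 (0.978). For RAP1B they were GLO1 (0.986) and FGFR1OP2 (0.983), for RAP1A BTF3L4 (0.971) and BZW1 (0.963), and for RAPGEF3 CNTROB (0.963) and LIMK1 (0.957). When wildtype basal replicate 1 was left out, the r of RAP1A with both of its genes was 0.870 and 0.840, while those of RAPGEF1 were as before. For RAPGEF2 the genes were HEATR1 (0.935) and DIP2B (0.911), for RAP1GAP FNDC4 (0.905) and ENHO (0.889), and for RAP1GAP2 PLIN3 (0.901) and PRKD2 (0.899). RAPGEF4 had ANKRD34B (0.817) and SMIM17 (0.790), and RAPGEF6 had PRRC2C (0.816) and CBL (0.803).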

How the data were processed

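Poly(A) RNA of 18 libraries was sequenced as paired reads. The deposited values are expected counts, the estimated read numbers per transcript that the authors obtained with Salmon 1.7.0 without normalization for depth or length. The transcript index is not given in the sources used here. Of 184844 transcripts, 161798 were joined by Ensembl identifier to GENCODE 29 (GRCh38), which kept 92.9 to 93.8% of a library's counts, and 0 sample columns were left unused. Counts were summed per gene and rounded. Gene counts were scaled by TMM and filtered by group with filterByExpr in edgeR 4.0.16 (R 4.3.3). Group means were then fitted to all 18 libraries with its quasi-likelihood method. Calls required an adjusted p (Benjamini-Hochberg, over 15519 genes) below 0.05. Standard errors are the log2 difference divided by the square root of F. Normalized counts are counts scaled by TMM library size. TPM used annotated lengths. Python 3.11.15, numpy 2.4.6, pandas 2.3.3 and matplotlib 3.10.9 served for the rest. The share of a gene's counts in its leading transcript was compared by exact permutation for genes with 2 or more transcripts at 10% or more.

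The study used DESeq2, an alternative here (1.42.0). Others were DESeq2 size factors and upper-quartile scaling, other count filters, only the groups compared, a replicate block, offsets for GC content and length, protein-coding transcripts only, an adjusted p under 0.01, and each library left out. The script was tested on simulated data. Deviations of same-numbered libraries from their group means correlated between -0.0993 and 0.0766, so numbers were not taken to pair samples. The 9 genes and the lists were chosen with earlier results of these data known. Named were all 9 genes, the targeted and control genes, and for each of the 9 the 2 genes with the highest correlation. From the lists, some of the called genes were named, out of the up to 3 per list and comparison with the largest difference. Other called genes, among them PLCE1, RASGRP1, RAP2B, ARAP3, FNTA and RAP1GDS1, are given by counts only, as are RAP2C, KRIT1 and the rest. Depth gives counting error only and the replicates set the precision.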

Additional observations from a re-analysis of the deposited data

How the results depend on the processing

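The 15 differences called between lines were refitted 435 times: 339 kept the call, 96 lost it and 0 turned sign. RAPGEF1 between Gαs KO and wildtype with isoproterenol kept it in all 29 alternatives, at 0.62 to 0.71. RAP1B between β-arrestin1/2 KO and wildtype at basal lost it in 20, at -0.68 to -0.24. RAPGEF1 between the KO lines at basal lost it in 19 (-0.30 to -0.26) and RAP1GAP between them with isoproterenol in 15 (0.11 to 0.58). RAPGEF3 between β-arrestin1/2 KO and wildtype at basal ran from -1.73 to -0.83 and lost the call in 1. Of the 93 values not called, 47 turned sign in at least 1 alternative. The count of the 9 genes called moved as well. With only the groups compared it was 1 for the response of β-arrestin1/2 KO cells, 0 for both KO lines against wildtype at basal, 5 for β-arrestin1/2 KO against Gαs KO at basal, 4 for Gαs KO against wildtype with isoproterenol and 7 between the KO lines with isoproterenol. With GC and length offsets the counts for β-arrestin1/2 KO against wildtype, Gαs KO against wildtype and between the KO lines were 5, 4 and 5 at basal, and with isoproterenol 3 for Gαs KO against wildtype and 6 between the KO lines. The same offsets with the replicate block gave 5, 4 and 5 at basal, and 4 and 6. At an adjusted p under 0.01 it was 1 between the KO lines at basal, 0 between them with isoproterenol and 0 for β-arrestin1/2 KO against wildtype with isoproterenol. With each library left out in turn, the counts ran from 0 to 1 for the response of β-arrestin1/2 KO cells. At basal they ran from 2 to 7 for β-arrestin1/2 KO against wildtype, 1 to 5 for Gαs KO against wildtype and 1 to 5 between the KO lines, and with isoproterenol from 0 to 5, 1 to 4 and 1 to 7. The share of all genes called between lines moved as well, from 26.2 to 33.6% in the main fit to 45.3 to 51.1% without wildtype basal replicate 1. For only the groups compared and for an adjusted p under 0.01 that share is not given here. Those counts thus cannot be read as a result about the 9 genes. Tests of transcript shares that passed ran from 2 to 4 with a library left out and were 0 of 18 in the basal libraries, where the design cannot pass. The replicate number as a block, which does not pair these samples, changed 1 call, RAPGEF1 between the KO lines at basal (-0.29, adjusted p = 0.054).

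Counts with fewer libraries rest on fewer degrees of freedom. RAPGEF3, RAPGEF4 and RAP1GAP lay between 42.5 and 226 normalized counts, where small differences are not detectable with 3 libraries a group.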
